A study of Drosophila melanogaster with 3 samples.

Results

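The genes of the fourth chromosome, the smallest autosome of *Drosophila melanogaster*, were followed through RNA-seq of *CycC Y5* larvae. All genes that the deposited gene table places on chromosome 4 were taken, which gave 114 of 17896 genes, from base 879 to base 1271759 of genome build BDGP6. *CycC* encodes cyclin C, the partner of the kinase Cdk8 in the Mediator complex, and *CycC Y5* is a null allele carried on an *FRT82B* chromosome that was outcrossed to *w1118*. The 3 libraries were made from total RNA of homozygous *CycC Y5* whole larvae at the wandering stage of the third instar, with 10 larvae pooled in each, and every library therefore carries the same mutation. Libraries of the *w1118* control and of *Cdk8 K185* larvae were not analysed here. All values therefore describe mutant larvae alone, without a comparison between genotypes. The sexes in the pools were not stated, homozygotes reach this stage on a maternal *CycC* contribution, and fewer cells of a type cannot be told apart from less RNA per cell in whole larvae.

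The fourth chromosome is largely packaged as heterochromatin, with short transposon copies scattered through the introns of its genes, and yet those genes are transcribed. It is coated by the protein Pof, which binds the transcripts of its active genes, and by heterochromatin protein 1 and the histone methyltransferase eggless. It carries developmental regulators of the Hedgehog, Wnt and eye pathways beside housekeeping genes for ribosomes and mitochondria.

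The libraries held 10222639, 10179342 and 12146443 counts over the gene and transposon tables. Levels are given as CPM, counts scaled to these totals. The 20 most counted features took 19.8%, 19.1% and 25.04% of the counts, and none of them lies on chromosome 4. Library sizes scaled by the trimmed mean of M values (TMM) were nearly equal, with factors of 1.04, 1.07 and 0.893. Raw counts of a gene can therefore be compared roughly between libraries. Unless stated otherwise, the highest and lowest library of a called gene are those on the TMM scale. Where the range is small, as for *PMCA* and *JIL-1*, this order can differ from that of the raw counts. No library held a count for the mutated gene *CycC* (0 in each), which allows up to 3 counts (0.293, 0.295 and 0.247 CPM, counting error only). On the TMM scale, body wall muscle markers (7 of 7) and fat body markers (6 of 6) were highest in library 3, and salivary gland markers (5 of 5 tested) were highest in library 1. The labels do not say whether the pools came from separate cultures, so the tests measure the spread between these libraries.

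Of the 114 genes, 80 are protein-coding, 26 are noncoding RNA genes, 7 are pseudogenes and 1 is a snoRNA gene. For 13 of them the span lies inside that of another gene, and all 13 had 0 counts, as did all 3496 such nested genes on the major arms and chromosome 4. Of the 13, 11 lie on the strand opposite to their host, so the counting gave a nested gene no reads on either strand. They were set aside, and the other 101 genes were kept. Of these, 37 share some bases with a neighbour and 13 share at least 20% of their span. A length without the shared bases, the unshared span, was therefore used for levels per kb.

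Nearly every protein-coding gene of the chromosome was expressed. In all 3 libraries, 10 or more counts were reached by 83 of the 101 genes, among them 79 of the 80 protein-coding genes (98.75%). The exception was *Mpv17*, whose span shares all but 2 bases with its neighbours, so that its 0 counts are no measure of it. On the other arms 77.3% (2L) to 81.9% (2R) of the protein-coding genes reached that count. The other genes at 0 were the pseudogene *CR32010* and the microRNA genes *mir-9385* and *mir-954*, and 14 genes lay between 0 and the minimum. Length differed as well, and its part in detection was not tested. The median span was 10090 bp for the protein-coding genes of chromosome 4 and 2298.5 bp for those of the other arms.

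Together the 114 genes, which are 0.637% of the genes, took 1.54% of the counts of library 1, with a 95% Wilson interval of 1.53% to 1.55%. The share was 1.42% (1.41% to 1.43%) for library 2 and 1.35% (1.35% to 1.36%) for library 3. The mean was 1.44% ± 0.0960 (SD, n = 3). Intervals cover counting error only. Relative to the TMM library sizes, the order differed, with 1.48%, 1.33% and 1.51%. The pair of most counted genes, *apolpp* and *RpS3A*, held 32.9%, 31.4% and 35.7% of the chromosome's counts.

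Per kb of unshared span, the levels of the 83 genes ranged from 0.0679 to 1115 CPM, with a median of 11.4 CPM. *RpS3A* (FBgn0017545, chromosome 4 from 65225 to 67207, minus strand), which encodes a protein of the small ribosomal subunit, was counted 22292, 22126 and 24856 times in libraries 1, 2 and 3. This is 1115 ± 39.5 CPM per kb (SD, n = 3). *ATPsynbeta* (FBgn0010217, 1031484 to 1034917, plus strand), the catalytic subunit of the mitochondrial ATP synthase, had 7554, 7971 and 10221 counts and 249 ± 16.3 CPM per kb (SD, n = 3). *apolpp* (FBgn0087002, 1060969 to 1077273, plus strand) encodes apolipophorin, the precursor of the main lipoprotein of the haemolymph, which is made in the fat body. It had 29562, 23319 and 33750 counts and 216 ± 26.0 CPM per kb (SD, n = 3). *apolpp* shares 24.7% of its span with *Zyx*, so its level is uncertain. The levels of *ATPsynbeta* and *apolpp* differed by less than 1.5 times, and that of *RpS3A* lay far above both beyond their spread.

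The next 7 genes by level per kb were *CG31997* (175 CPM per kb), *Arf4* (73.8), a small GTPase of vesicle traffic, *Rad23* (69.6), which carries ubiquitylated proteins to the proteasome, *CaMKI* (48.7), a calmodulin-dependent kinase, *ND-49* (43.0), a subunit of respiratory complex I, *Crk* (37.1), a signalling adaptor, and *eIF4G1* (36.0), the scaffold of the cap-binding complex. By CPM without division by length the order changed. The giant muscle gene *bt*, the calcium pump *PMCA*, *Ank*, which encodes ankyrin, *gw*, the GW182 protein of microRNA silencing, and *anne* then entered the first 10, with 464, 406, 382, 328 and 315 CPM. At the bottom lay the Pax gene *sv* (0.0679 ± 0.0308 CPM per kb, SD, n = 3), the kainate receptor gene *Ekar* (0.187 ± 0.0295), the eye regulator *ey* (0.313 ± 0.0402) and the forkhead gene *fd102C* (0.314 ± 0.0640). *ey*, *fd102C* and *Kif3C* (0.316 ± 0.191) did not differ beyond their spread. Their order rests on the length used. Per kb of annotated exons the means were 1.97 CPM for *ey*, 0.925 for *fd102C* and 0.511 for *Kif3C*, and *ey* then lay above the glutamate receptor gene *mGluR* (1.02).

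**Figure D1:**
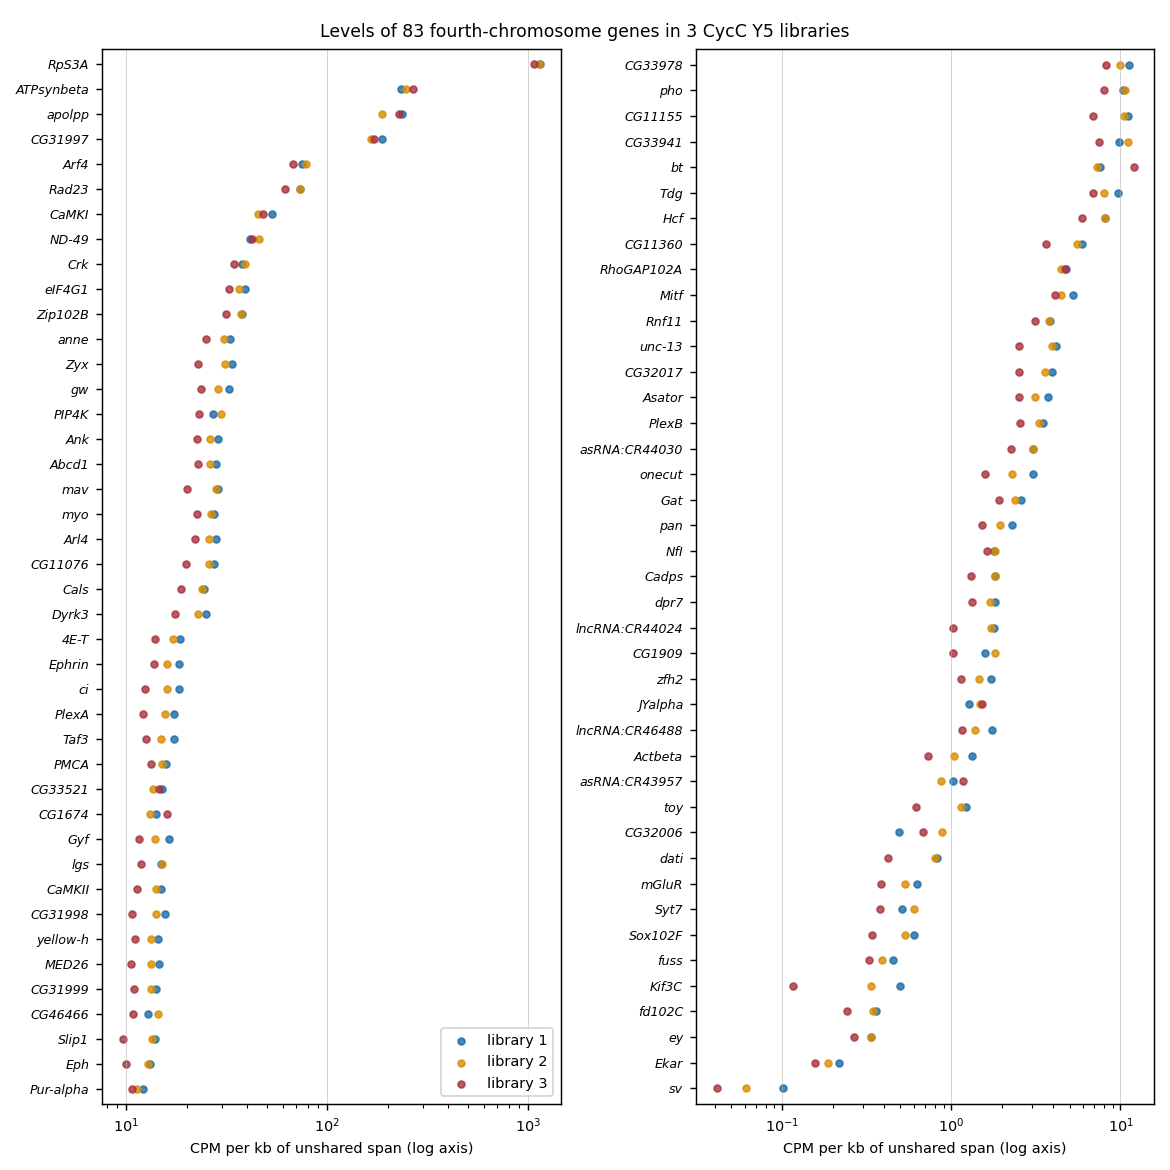
Level of each of the 83 genes of chromosome 4 with at least 10 counts in every library, as CPM per kb of unshared span on a log axis, with 1 point per library and the genes in order of their mean. RpS3A stands alone near 1115 CPM per kb and sv is lowest at 0.0679, and the points of a gene lie close together beside the range between genes.

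The median level of chromosome 4 lay above that of every other arm. Among protein-coding genes with at least 10 counts in every library, the median level was 12.3 CPM per kb for 79 genes of chromosome 4, and 8.05 (X), 8.62 (2L), 9.48 (2R), 9.17 (3L) and 9.11 CPM per kb (3R) for the others. Within libraries, the median of log2 CPM per kb (with 0.01 CPM per kb added) was higher on chromosome 4 than on the other arms by 0.46 ± 0.053 (SD, n = 3), in 3 of 3 libraries. Over all 101 genes against 14098 genes of the other arms it was higher by 0.36 ± 0.20 (SD, n = 3), again in 3 of 3 libraries. For each comparison p was 0.25 by exact permutation of the signs (two-sided), below which 3 libraries cannot go. The size rests on the length used. Per kb of annotated exons, the difference over all genes was 1.11 ± 0.13 (SD, n = 3).

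**Figure D2:**
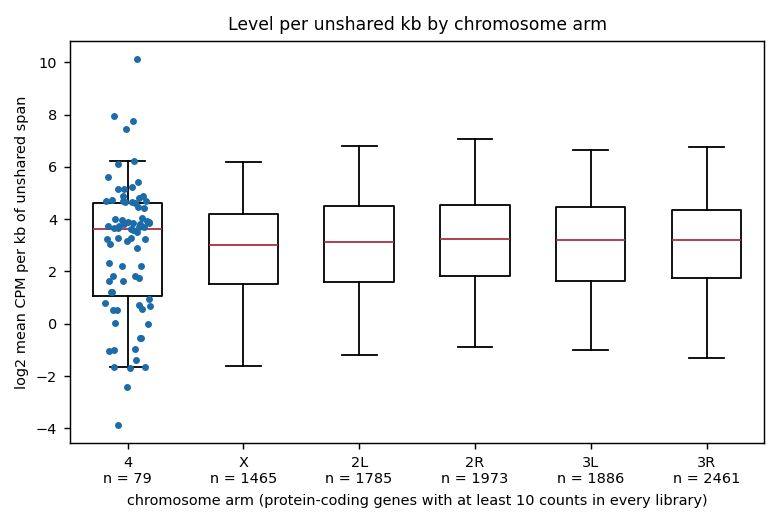
Level of protein-coding genes with at least 10 counts in every library, by chromosome arm, as log2 of the mean CPM per kb of unshared span. Lines in the boxes are medians, boxes are quartiles, whiskers reach the 5th and 95th percentiles, and points are the 79 genes of chromosome 4, whose median of 12.3 CPM per kb lies above those of the other arms (8.05 to 9.48).

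The genes also shared features of structure that the choice by chromosome did not use. In BDGP6.54, 82.5% of the 80 protein-coding genes held at least 1 annotated transposon copy wholly within their span, against 6.63% of 11892 protein-coding genes on the other arms. The median share of the span taken by transposons was 10.8%, with quartiles of 1.87% and 21.0%, and the median share taken by introns was 51.0%, against 15.4% on the other arms. Across the 83 genes tested, the level per kb was lower in longer genes (Spearman's rho = -0.40, across genes, which share libraries and are not independent) and in genes with a larger transposon share (rho = -0.38). This level is divided by the unshared span, which counts introns and transposons, so part of both correlations is built into the measure. How large that part is was not tested. The 69 genes with a copy had a median of 9.45 CPM per kb and a median span of 10904 bp. The 14 genes without a copy wholly within their span had 25.6 CPM per kb and 2794 bp, so the genes with a copy were also longer. Among the 14 is *lncRNA:CR46488*, whose whole span is annotated as transposon. Per kb of annotated exons the medians were 16.6 CPM with a copy and 35.6 CPM without one. *RpS3A*, *ATPsynbeta*, *CG31997*, *Arf4* and *Rad23* hold no copy. *apolpp*, just below *ATPsynbeta* by level, holds 3 copies (8.49% of its span), and transposons take 17.1% of the span of *CaMKI*, 36.3% of *Ank* (25.9 CPM per kb) and 57.0% of *CG11360* (5.02 CPM per kb). Position along the chromosome went with the level hardly at all (rho = -0.04).

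Between the highest and the lowest library, 51 of the 83 genes (61.4%) differed by less than 1.25 times on the TMM scale, against 55.8% of 9822 genes tested in all. Only *Kif3C* and *sv* (2.41%) differed by more than a factor of 2, against 5.83% of all genes. Both had few counts, and *sv* (25, 15 and 12) was not called in the test given below. The genes of chromosome 4 had more counts than all genes, as given below, and the part of this in their ranges was not tested. *Rad23* had the narrowest range of the 83, with 2041, 2045 and 2058 counts. *Zip102B*, a zinc transporter, had 1214, 1199 and 1206 counts, and *myo*, a myostatin-like ligand, had 1498, 1453 and 1472. For these 3 genes no variation beyond counting noise was called (adjusted p = 0.89, 0.80 and 0.51, chi-square test of homogeneity with Benjamini-Hochberg adjustment over all features). By edgeR, the biological coefficient of variation had a median of 0.147 for the 83 genes and 0.142 for all genes.

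In that test, 52 of the 83 genes varied between libraries, at an adjusted p under 0.05. This is 62.7%, where 39.8% of all 9898 features were called. The genes of chromosome 4 also had more counts, with a median of 1041 against 287 for all genes tested. Among genes with a mean count of 1000 to 3000, 81.2% of 32 genes of chromosome 4 and 72.0% of 1316 genes of the other arms were called. At 100 to 300 counts the shares were 36.4% of 11 and 28.0% of 2504. The test compares libraries and not conditions. Leaving out library 1 brought the number to 26 (29.5% of all features were then called), and leaving out library 3 brought it to 30 (16.5%).

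The genes of the chromosome moved together by a small amount. Of the 52 that varied, 40 were highest in library 1, 12 in library 3 and 0 in library 2, and 32 were lowest in library 3. Among all genes that varied, 30.4% were highest in library 1, 44.8% in library 3 and 24.8% in library 2, and 39.7% were lowest in library 3. The 3 hemocyte markers that varied were likewise highest in library 1, and their part was not tested. Set against the mean of libraries 2 and 3, library 1 had a median log2 ratio of 0.15 over the 83 genes and -0.0026 over all tested genes of the major arms and chromosome 4, and 68 of the 83 genes lay above the latter median. The medians were between -0.014 and 0.014 for each of the other 5 arms. For library 3 the median was -0.12 over the 83 genes and -0.012 over all. With total counts in place of TMM sizes, the median over all genes was 0.093 for library 1 and -0.26 for library 3. Another library size moves all genes by 1 amount, so the distance of chromosome 4 to all genes (0.15 and -0.11) cannot change with it.

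Gene length moved with this shift. Over the other arms pooled, the same ratio for library 1 had a median of -0.083 for 3651 genes of up to 2000 bp, 0.057 for 1284 genes of 5000 to 10000 bp, 0.14 for 647 genes of 20000 to 50000 bp and 0.21 for 285 longer genes. In the same classes chromosome 4 had 0.0068 (4 genes), 0.18 (23 genes) and 0.30 (12 genes). The only longer gene, *bt*, went the other way (-0.40). In library 3 the order was inverted, from 0.080 for the shortest genes of the other arms to -0.24 for the longest. Chromosome 4 lay above the other arms in library 1 in each class with more than 1 gene. The part of length in the shift of these genes was not tested.

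**Figure D3:**
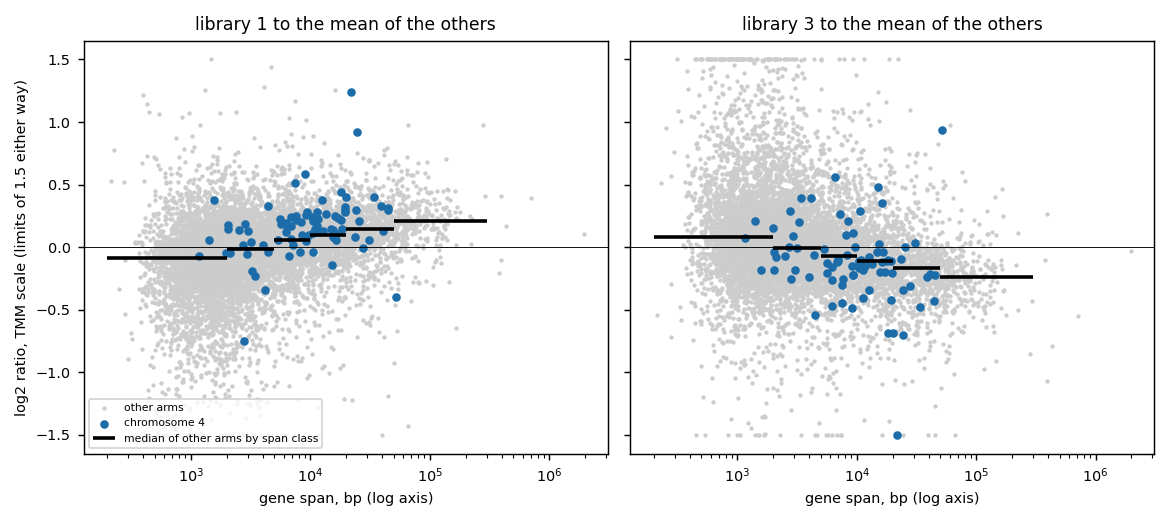
For library 1 (left) and library 3 (right), the log2 ratio to the other libraries' mean on the TMM scale, with values past 1.5 drawn at that limit, against gene span on a log axis, for each tested gene of chromosome 4 (blue) and of the other arms (grey), with the medians of the other arms by span class as black lines. The black lines rise with span in library 1, from -0.083 to 0.21, and fall in library 3, and 68 of the 83 blue points lie above 0 on the left.

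The largest departure among abundant genes was *bt* (FBgn0005666, 724400 to 776474, plus strand), which encodes projectin, a titin-like protein of the muscle sarcomere. It had 4009, 3850 and 7556 counts, so that library 3 stood apart from the other two, with a log2 ratio of 0.94 to their mean on the TMM scale. Its chi-square of 1683 was far beyond counting noise, and its biological coefficient of variation was 0.282, or 0.125 without library 3. The 7 markers of body wall muscle summed to 4877, 5570 and 12040.3 TMM-scaled CPM in the same libraries, and each was highest in library 3. Their part in the level of *bt* was not tested. *CG1674* was likewise highest in library 3, with 2180, 2032 and 2950 counts (log2 ratio 0.48, adjusted p = 7.7e-43, chi-square test, Benjamini-Hochberg adjusted). On the TMM scale *ATPsynbeta* (log2 ratio 0.39, adjusted p = 5.8e-98, chi-square test) and *ND-49* (0.20, adjusted p = 2.2e-05), both of mitochondrial energy production, were highest there too.

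On the TMM scale *apolpp* was lowest in library 2 and highest in library 3, and its chi-square of 1979 was the largest on the chromosome. Scaled to total counts it was highest in library 1, at 236, 187 and 226 CPM per kb in libraries 1, 2 and 3. The summed level of the 6 fat body markers had the order of *apolpp* on the TMM scale, at 29166, 24550 and 66635 TMM-scaled CPM, and 5 of the 6 were lowest in library 2. The range was narrower for *apolpp*, whose highest library exceeded its lowest by 0.54 on the log2 scale. The part of the fat body in this was not tested.

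Several of the most variable genes were lowest in library 3. *toy* (989725 to 1007922, plus strand), one of the fly's *Pax6* genes, had 227, 211 and 137 counts (adjusted p = 2.0e-05, chi-square test, Benjamini-Hochberg adjusted). *dati*, a zinc finger gene, had 161, 156 and 99 counts (adjusted p = 0.00063), and *Sox102F*, a SoxD factor, had 208, 183 and 141 (adjusted p = 0.0035). *onecut*, a homeodomain factor, stood highest in library 1, at 283, 211 and 175 counts (adjusted p = 2.6e-06). *unc-13*, required for priming of synaptic vesicles, had 1384, 1313 and 1003 counts (adjusted p = 4.6e-15), and it shares 26.4% of its span with other genes. The other *Pax6* gene, *ey*, had 81, 80 and 76 counts (adjusted p = 0.92). Among 3 neuronal markers tested, *brp* had 268, 264 and 201 counts and *nSyb* 253, 266 and 223, whereas *Syt1* was highest in library 3 at 1335, 1326 and 2243. *elav* and *Syx1A* share almost their whole span with other genes and could not be read. The part of nervous tissue was not tested. Without library 3 none of the calls of *toy* (adjusted p = 0.60, chi-square test), *dati* (0.84), *Sox102F* (0.37) and *unc-13* (0.21) was made, and without library 1 that of *onecut* (0.21) was not.

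*Kif3C*, a kinesin gene, had the widest range, with 36, 24 and 10 counts (adjusted p = 0.0022), at the edge of the count minimum. It shares 67.5% of its span with *CG32017* and is uncertain. *Actbeta* (101, 79 and 66 counts, adjusted p = 0.041) and *asRNA:CR43957*, which overlaps the start of *ci* (64, 54 and 87 counts, adjusted p = 0.040), passed narrowly. *CG11360* had 1175, 1104 and 855 counts (adjusted p = 2.6e-12, chi-square test, Benjamini-Hochberg adjusted).

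**Figure D4:**
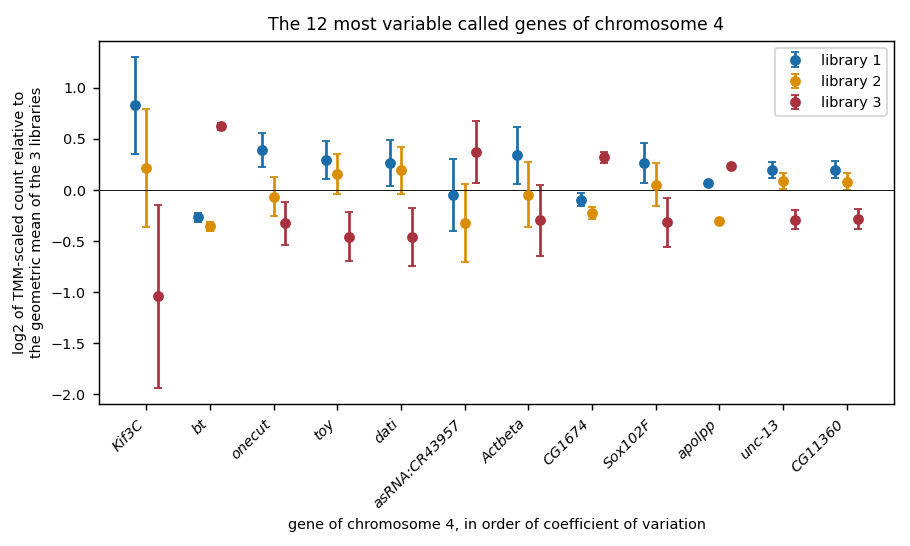
The 12 genes of chromosome 4 that had the highest coefficient of variation of all those called, each shown in the 3 libraries as log2 of the TMM-scaled count relative to the geometric mean of the libraries. Bars are 95% counting intervals, and library 3 is lowest for Kif3C, onecut, toy, dati, Actbeta, Sox102F, unc-13 and CG11360 and highest for bt, asRNA:CR43957, CG1674 and apolpp.

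The longest of the function lists, which were made by hand, was that of transcription factors and co-factors. All 17 of the listed genes found on the chromosome passed the count minimum, and 11 varied, of which 10 were highest in library 1 and 9 were lowest in library 3. The share that varied is close to that of the chromosome as a whole (52 of 83). Of those 52 genes, 40 were highest in library 1 and 32 lowest in library 3, so the direction is that of most of them. Without library 1 the calls of *ci* (adjusted p = 0.22, chi-square test), *pan* (0.46), *zfh2* (0.53) and *MED26* (0.38) were lost, and without library 3 that of *Hcf* (0.63). *ci*, the transcription factor of Hedgehog signalling, had 1650, 1434 and 1328 counts (15.6 ± 2.99 CPM per kb, SD, n = 3, adjusted p = 3.3e-09). *pan*, the TCF factor at the end of the Wnt pathway, had 1052, 891 and 834 counts, spread over 44945 bp (1.92 ± 0.382 CPM per kb, SD, n = 3, adjusted p = 6.2e-07). Its co-activator *lgs* had 1064, 1068 and 1004 counts and was not called (13.98 ± 1.81 CPM per kb, SD, n = 3, adjusted p = 0.34). *MED26*, a subunit of the Mediator to which cyclin C belongs, had 1565, 1425 and 1340 counts (12.9 ± 2.09 CPM per kb, SD, n = 3, adjusted p = 7.2e-05). *pho*, a DNA-binding Polycomb protein, had 966, 989 and 885 counts (adjusted p = 0.080), and *Mitf*, a regulator of lysosome genes, had 1376, 1158 and 1269 (adjusted p = 4.0e-05, chi-square test, Benjamini-Hochberg adjusted). *zfh2* (644, 541 and 503 counts) and *Hcf* (1301, 1281 and 1128) varied in the same direction as *ci*.

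Ligands and receptors of the chromosome were expressed at graded levels. Of its 3 TGF-beta family ligands, *mav* (25.6 ± 4.78 CPM per kb) and *myo* (25.5 ± 2.55) did not differ beyond their spread, and *Actbeta* lay far lower at 1.03 ± 0.298 (SD, n = 3 for each). Per kb of annotated exons the mean of *myo* lay above that of *mav* (34.5 and 26.7 CPM), so their likeness rests on the length used. *mav* had 829, 800 and 688 counts (adjusted p = 0.0013). *Ephrin*, a membrane-bound guidance ligand, had 1569, 1366 and 1407 counts (16.1 ± 2.25 CPM per kb, SD, n = 3). Its receptor gene *Eph*, named here after its values were seen, lies on the same chromosome and had 1591, 1551 and 1424 counts (12.03 ± 1.81 CPM per kb, SD, n = 3). Per kb of unshared span, *Ephrin* lay above *Eph* in 3 of 3 libraries, by 1.24 to 1.39 times. Per kb of annotated exons their means were close (25.3 and 24.6 CPM), so this order rests on the length used. The semaphorin receptor *PlexA* had 3055, 2753 and 2539 counts (15.1 ± 2.67 CPM per kb, SD, n = 3, adjusted p = 2.4e-12). Its relative *PlexB* had 380, 361 and 329 counts (3.11 ± 0.504 CPM per kb, SD, n = 3, adjusted p = 0.20). Of these receptors, *PlexB* was the lowest in every library.

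All 10 synaptic and ion channel genes found passed the minimum, and 5 varied, each highest in library 1 and 4 of them lowest in library 3. This count lies between the 39.8% of all features and the 62.7% of the chromosome's genes, and the direction is that of most varying genes of the chromosome. Levels spanned from *Ank* (25.9 CPM per kb) and *Cals* (22.2), a calsyntenin, through *CaMKII* (13.5), a kinase of synaptic plasticity, and *Gat* (2.30), a GABA transporter, to *mGluR* (0.514), *Syt7* (0.498) and *Ekar* (0.187). *Cadps*, which acts in release of dense-core vesicles and is the most distal gene of the chromosome, had 754, 753 and 653 counts over 40923 bp (adjusted p = 0.018). *Syt7* had 145, 171 and 128 counts (adjusted p = 0.11).

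The counts of called genes in the following short lists stand beside 39.8% of all features and 62.7% of the chromosome's genes. None is read here as a trait of its list. Of the 5 genes for translation, mRNA and protein turnover, 4 varied, by small amounts. *RpS3A* differed by 0.17 on the log2 scale between its highest and lowest library (adjusted p = 4.6e-41), and this call was lost when the 20 most counted features were left out of the totals (adjusted p = 0.32). *eIF4G1* had 6138, 5749 and 6074 counts, a range of 0.12. *Gyf*, an adaptor of translational repression, had 2259, 1918 and 1903 counts, and *4E-T*, which binds the cap-binding protein, had 1299, 1200 and 1159. Of 5 genes for energy and ion transport, 3 varied, 2 of them highest in library 3 (*ATPsynbeta* and *ND-49*). *PMCA* had 4446, 4236 and 4454 counts (adjusted p = 0.010, chi-square test, Benjamini-Hochberg adjusted). In the list for muscle, cytoskeleton and adhesion, 5 of 7 genes varied, with 3 highest in library 1 and 2 in library 3 (*bt* and *RhoGAP102A*). The call of *RhoGAP102A* was lost with total counts (adjusted p = 0.54, chi-square test) and without the 20 most counted features (0.13). Of the 5 kinases listed, *Asator*, *Dyrk3* and *CaMKII* were highest in library 1, *bt* in library 3, and *PIP4K* was not called. The list is not complete. It leaves out the kinase *CaMKI*, highest in library 3 (adjusted p = 3.9e-28, chi-square test), and the receptor gene *Eph*, highest in library 1 (0.0074). In the lipid list, only *apolpp* of 2 genes was called.

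The chromatin factors that act on the fourth chromosome lie on other arms. *Pof* had 551, 617 and 570 counts (53.8 ± 6.84 CPM, SD, n = 3, adjusted p = 0.37), and the gene for heterochromatin protein 1 had 1808, 1973 and 1915 (adjusted p = 0.21). Neither was called, so no highest library is read for them. *Su(var)3-7*, a zinc finger partner of heterochromatin protein 1, had 512, 499 and 479 counts (adjusted p = 0.56), and *JIL-1*, a histone kinase, had 980, 989 and 838 (adjusted p = 0.0011). *wde*, the partner of eggless, had 637, 596 and 538 counts (adjusted p = 0.020), and *G9a*, a histone methyltransferase, had 568, 493 and 442 (adjusted p = 0.00045, chi-square test, Benjamini-Hochberg adjusted). In all, 5 of the 10 listed factors tested varied, 4 of them highest in library 1, where 39.8% of all features were called. *egg* shares 95.9% of its span with other genes and *Su(var)3-9* is nested, so their counts (11, 5 and 4, and 0 in each library) are no measure of them.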

How the data were processed

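The authors deposited raw read counts of genes and, separately, of transposon families, unnormalized, with 1 column for each library. Their processing notes name STAR and build dm6. The counting program was not given in the sources used here. Names in the transposon table stand 1 cell left of the values and were shifted. The tables hold 11 columns of other libraries, which were not used. All 114 members had coordinates equal to those of annotation BDGP6.54, and listed lengths equal to their spans. With a single genotype, edgeR has no contrast. Variation was tested by chi-square, with TMM library sizes as expectation, over all features reaching 10 counts in each library, and p-values were adjusted by Benjamini-Hochberg. The test was checked on simulated counts. TMM and dispersions came from edgeR 4.0.16 and alternatives from DESeq2 1.42.0 (R 4.3.3, Python 3.11.15, SciPy 1.17.1). Shares have 95% Wilson intervals.

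Named genes were the 10 largest by CPM and by CPM per kb, the 12 largest by coefficient of variation among called genes, genes at 0 and members of function lists. Of listed names, 5 of 7 for translation and 10 of 17 for synapses were found on chromosome 4. Members and lists were chosen with earlier results of these data known. Protein-coding subsets, pairs of libraries and other scalings of the shift were added after seeing the data. Midgut, hemocyte, testis and epidermis markers gave 6 of 6, 3 of 4, 2 of 3 and 5 of 5 tested genes called, where 39.8% of all features were called. The epidermis marker *ple* had 225, 5844 and 235 counts and *Ddc* 1200, 3782 and 1090, so library 2 was highest in these. The other 3 tested markers of that list went the other way. On the TMM scale *Lcp1*, *Lcp2* and *Lcp3* were lowest in library 2 (log2 ratios of -0.40, -0.54 and -0.30) and highest in library 3.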

Additional observations from a re-analysis of the deposited data

How the results depend on the processing

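The 52 genes called as varying ranged from 26 to 48 on leaving out 1 library at a time, with the minimum without library 1. In that setting 31.3% of the chromosome's genes and 29.5% of all features were called. Without library 3, 1650 of all features were called. The other settings gave 44 to 69 (threshold 0.01 and total counts), and total counts called 5950 of all features in place of 3943. The median log2 level of 2.19 CPM per kb was 3.52 per kb of exons, 3.47 over genes with at least 10 counts, 2.60 without genes sharing 20% or more, 3.61 over protein-coding genes and 3.62 over those with at least 10 counts. These sets hold fewer or other genes, and the exon length is shorter by construction. The excess over the other arms kept its direction under all alternatives run, from 0.26 without library 1 to 1.11 per exon kb. The share of counts was 1.83% with the 20 most counted features left out of the total, which is smaller by construction. Of the 62 named genes tested, 19 calls were lost without library 1, 4 without library 2 and 18 without library 3, and *asRNA:CR43957*, *RhoGAP102A*, *RpS3A* and *Pur-alpha* lost theirs under a scaling by totals. Calls were also gained among these genes, 13 with total counts and 9 with totals without the 20 most counted features. No paired analysis was possible because all 3 libraries carry 1 genotype.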

Other observations

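The noncoding genes of the chromosome were counted rarely. Of 18 noncoding RNA genes that are not nested, 4 reached 10 counts in every library. *lncRNA:CR44024* had 81, 78 and 55 counts, *asRNA:CR44030* had 83, 82 and 73, and *lncRNA:CR46488*, whose whole span is annotated as transposon, had 28, 22 and 22. The pseudogenes *CR32011* (0, 0 and 2 counts) and *CR32009* (3, 2 and 0), which lie near the first base of the assembled chromosome with *CR32010*, stayed at or near 0. Beside them the protein-coding gene *JYalpha*, for a subunit of the sodium and potassium pump, had 54, 63 and 77 counts.

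At the other end, the 5 protein-coding genes nearest the telomere had levels from 1.64 CPM per kb for *Cadps* to 26.7 for *PIP4K*, with a median of 14.4, against a median of 11.4 over all 83 genes. *Dyrk3*, a kinase gene next to *Cadps*, had 1432, 1302 and 1193 counts, and *CG33521* had 1032, 917 and 1175.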
